A study of Mus musculus with 4 samples.

Results

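Classical monocytes are the Ly6C-high monocytes of mouse blood. They were found in single-cell RNA libraries of 4 mouse lungs as 123 of the 28168 cells kept. A cell was counted as one when it held at least 2 transcripts of Ly6c2 and at least 1 transcript each of at least 2 of the genes Ccr2, F13a1, Vcan, Fn1 and Lyz2. Cells with 5 or more transcripts of the complement genes C1qa, C1qb and C1qc together were left out, as were cells with 3 or more of the granule gene Ngp. Cells with any transcript of Cxcr2, Siglech, Cd3e, Cd79a, Ace or Treml4 were left out too, which sets aside neutrophils, plasmacytoid dendritic cells, T cells, B cells and non-classical monocytes. The members were thus chosen by measured UMI counts of these genes, and every value of a rule gene below is a description and not a test.

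The lungs came from 4 females of the MMTV-PyMT line (FVB/NJ background), whose mammary tumour transgene is driven by a mouse mammary tumour virus promoter. All were taken at 13 weeks of age, 5 weeks after a pellet was placed at 8 weeks. In 2 mice the pellet was a placebo, and in 2 mice it held 5 mg tamoxifen, a modulator of the oestrogen receptor, released over 60 days. Perfused lungs were digested with dispase, collagenase, elastase and DNase, and each mouse gave 1 library of 10x 5' gene expression, in which a unique molecular identifier (UMI) marks each captured transcript. Every mouse carried the transgene, so no value here compares it with a mouse lacking it. Whole lung was loaded with no sort, and whether a monocyte lay in a vessel or in tissue cannot be told apart.

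Classical monocytes leave the bone marrow through CCR2, the receptor for the chemokine CCL2, and are drawn from blood into inflamed tissue and tumours. There they can become macrophages or cells that resemble dendritic cells, and some mature in blood into non-classical monocytes, which depend on the nuclear receptor NR4A1 and patrol vessel walls. LY6C2 is a small surface protein held by a lipid anchor, and its amount on the cell is the usual way to tell the monocyte subsets of the mouse apart.

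The gate found 43 monocytes in placebo 1, 29 in placebo 2, 23 in tamoxifen 1 and 28 in tamoxifen 2. Their median UMI count was 4271 and 5238 in the placebo group against 5165 and 5332, and single cells ranged from 826 to 11970. Summed per mouse, they gave 204686 and 156726 UMIs against 127452 and 150299, out of libraries of 32646505 to 37285982 UMIs. The libraries shared 585 barcodes, 6 of them on monocytes, and in 6 monocytes haemoglobin genes made up over 1% of UMIs, 4 in placebo 1 and 2 in tamoxifen 2. At the Ly6c2 limit, 28 members had exactly 2 UMIs, and 37 cells that met every other condition had exactly 1. Of the supporting genes, 62 members had all 5 and 9 had exactly 2, and 14 cells outside had only 1. A further 35 cells failed only for Ace or Treml4, and 17 only for Cxcr2.

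The 4 mice gave members with a like marker profile. Levels are given as UMIs scaled to a common total of 1e6 (CPM), in which 1 UMI of a mouse's summed monocytes weighs about 5 to 8 CPM. Ly6c2 stood at 1187 and 1346 CPM in the placebo mice and at 1083 and 1564 CPM in the tamoxifen mice. Ccr2 stood at 420 and 428 CPM against 589 and 552 CPM. F13a1, which encodes the A subunit of coagulation factor XIII, stood at 821 and 785 CPM against 832 and 1098 CPM. These levels all belong to the choice of the cells.

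Genes that the rule did not read gave the same picture, although a comparison of a gated class with other classes is no test. Treml4 cells, as they are called from here on, served as the nearest relative. They held at least 1 UMI of Treml4, at least 2 of Ace and Treml4 together and none of the endothelial genes Cldn5 and Cdh5. They also held under 2 UMIs of Ly6c2, under 5 of the C1q genes, under 3 of Ngp and none of Cxcr2, Cd3e, Cd79a or Siglech. There were 105 and 60 of them in the placebo group against 94 and 123. Ms4a4c, a membrane protein gene of this monocyte subset, ran from 479 to 493 CPM over the 4 mice and from 66.8 to 143 CPM in Treml4 cells. Hp, which encodes the haemoglobin-binding protein haptoglobin, ran from 567 to 902 CPM against 82.1 to 205 CPM. Both genes were higher in classical monocytes of every mouse than in Treml4 cells of any mouse.

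The reverse order held for genes of non-classical monocytes and of antigen presentation. Spn, the sialophorin CD43 of mature monocytes, ran from 25.5 to 54.9 CPM in classical monocytes and from 157 to 298 CPM in Treml4 cells. Cst3, the protease inhibitor cystatin C, ran from 1820 to 3146 CPM against 10482 to 18830 CPM. H2-Aa, the alpha chain of an MHC class II molecule, ran from 185 to 957 CPM against 4436 to 11775 CPM. Nr4a1 did not separate the classes, at 1238 to 1890 CPM against 1678 to 2795 CPM. F13a1, a rule gene, was also read in macrophages with C1q transcripts. They held 516 to 632 CPM of it, below its level in the members of every mouse.

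**Figure D1:**
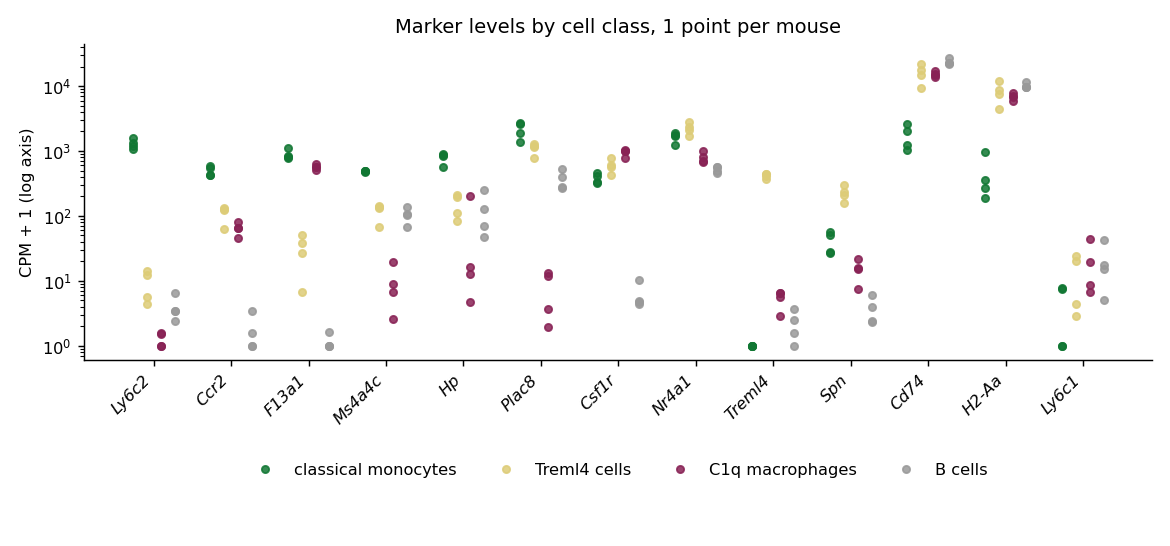
Level of 13 genes in 4 cell classes, as CPM + 1 on a log axis, with 1 point per mouse. Ly6c2 reaches at least 1083 CPM in classical monocytes and at most 13.0 CPM in Treml4 cells, and both classes were chosen by limits on it. Cd74 and H2-Aa are lowest in classical monocytes.

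The start regions of Ly6c2 and of its neighbour Ly6c1 are shown because these related genes were read at very different levels in the members. Ly6c2 lies on chromosome 15 at chr15:75108158-75111970 on the minus strand, in the GRCm38 build and GENCODE vM21 annotation. The 150 bases before each start are shown from RefSeq on GRCm38.p6, at chr15:75111972-75112121 for Ly6c2 and chr15:75048838-75048987 for Ly6c1, both read 5′ to 3′ on the minus strand. Capitals mark the longest run that both windows share, 20 bases that occur in the windows of 3 genes in the table.
Ly6c2: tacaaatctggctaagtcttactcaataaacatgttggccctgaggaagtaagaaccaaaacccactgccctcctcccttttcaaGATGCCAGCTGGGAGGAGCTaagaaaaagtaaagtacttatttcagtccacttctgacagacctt
Ly6c1: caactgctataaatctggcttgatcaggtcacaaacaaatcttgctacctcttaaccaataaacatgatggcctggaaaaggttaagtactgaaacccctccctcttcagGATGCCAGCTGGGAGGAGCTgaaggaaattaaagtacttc
In a global alignment, 56.5% of the columns of these windows were identical. Against 1083 to 1564 CPM of Ly6c2, the monocytes held at most 6.7 CPM of Ly6c1, a gene of lung endothelium that was looked at after its values were seen. The counts of the 2 genes were thus far apart in these cells. The cells were chosen by Ly6c2 and not by Ly6c1, so this gap is a description and not a test.

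Markers of other cell types were looked up by lists that partly overlap with monocyte genes. Of 14 neutrophil markers 8 had a UMI. Cxcr2 was at 0 by the rule, Ngp was at 0 although the rule allowed fewer than 3 UMIs, and Camp, Ly6g, Mmp9 and Stfa2l1 were at 0 without being in it. The neutrophil list summed to 274 and 504 CPM in the placebo mice and to 353 and 353 CPM in the tamoxifen mice. All 6 natural killer cell markers were at 0, and Xcr1, the receptor that defines type 1 dendritic cells, was at 0. Cd209a, a lectin gene of type 2 dendritic cells and of some monocytes, had 58 UMIs, at 191 and 6.4 CPM in the placebo mice and 78.5 and 53.2 CPM in the tamoxifen mice. The erythroid list summed to 17485 and 57.4 CPM against 94.2 and 22355 CPM, more than the lineage markers Ly6c2, Ccr2 and F13a1 together in placebo 1 and tamoxifen 2. Placebo 2 stood apart in other lists. The alveolar macrophage list, which holds Chil3, summed to 215 and 2705 CPM against 879 and 213 CPM, and the epithelial list to 371 and 1729 CPM against 157 and 426 CPM. Treml4 cells held markers of other types too. Their type 1 dendritic cell list summed to 1743 and 764 CPM against 1293 and 616 CPM. In the members that list summed to 464 and 306 CPM against 463 and 319 CPM. The fibroblast list of Treml4 cells summed to 1623 and 129 CPM against 1475 and 1133 CPM. Their epithelial list reached 4909 CPM in placebo 1, and their platelet list 1149 CPM in tamoxifen 1. The part of such transcripts in the results was not tested.

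The members were then compared between placebo and tamoxifen mice by number. They made up 0.571% of the kept cells of placebo 1 (95% exact binomial interval 0.414 to 0.768%) and 0.450% of those of placebo 2 (0.301 to 0.645%). In the tamoxifen mice they made up 0.334% (0.212 to 0.501%) and 0.383% (0.255 to 0.553%). The intervals cover counting error only. Both tamoxifen mice lay below both placebo mice, while all 4 intervals overlapped.

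The means were 0.510 ± 0.0858% and 0.359 ± 0.0346% (SD, n = 2 mice each), a difference of -0.152 percentage points. A two-sided exact permutation test gave p = 0.333, the lowest value possible with 2 mice per group, so no share could pass. Among the kept cells without Cxcr2 or Ngp UMIs the shares were 0.882 and 1.34% against 0.560 and 0.762%. The groups stayed apart with that denominator.

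Set against Treml4 cells, there were 41.0 and 48.3 classical monocytes per 100 in placebo mice against 24.5 and 22.8 in tamoxifen mice. Both tamoxifen mice again lay below both placebo mice. On the log2 scale the means were -1.17 ± 0.17 and -2.08 ± 0.07 (SD, n = 2 mice each), a difference of -0.91 with an exact permutation p of 0.333. This ratio was chosen after the data were seen. The comparison first laid down used all cells with at least 2 UMIs of Ace and Treml4 together. The other limits were the same, but with none on Treml4 alone, Cldn5 or Cdh5. Per 100 of those cells there were 10.3 and 9.54 classical monocytes against 6.99 and 9.18. Of those cells 36.4 to 66.1% held Cldn5 or Cdh5, genes of endothelium, where Ace is expressed, and with a stricter gate the groups overlapped (log2 difference -0.15, exact permutation p = 1).

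**Figure D2:**
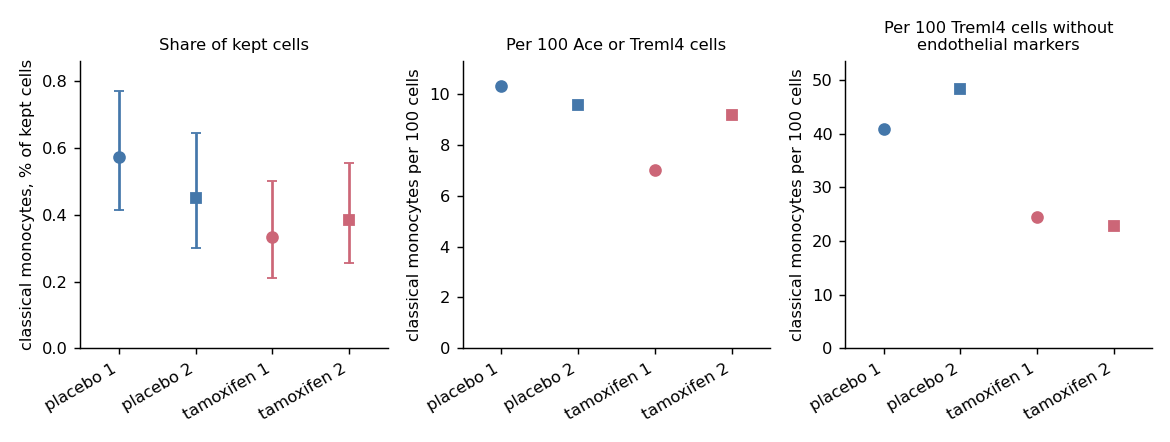
Classical monocytes of each mouse as percent of kept cells with 95% exact binomial intervals, per 100 Ace or Treml4 cells, and per 100 Treml4 cells without endothelial markers. The tamoxifen mice hold 24.5 and 22.8 classical monocytes per 100 Treml4 cells and the placebo mice 41.0 and 48.3.

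No gene passed in the comparison of tamoxifen with placebo within classical monocytes. Of 2292 genes tested with edgeR's quasi-likelihood test on UMIs summed per mouse, 0 had a Benjamini-Hochberg adjusted p under 0.05 (0.0%). At an unadjusted p under 0.05 there were 95 genes (4.14%), 48 higher (2.09%) and 47 lower (2.05%), and DESeq2 called 0 and had 14 at that unadjusted limit. Without placebo 1, placebo 2 or tamoxifen 2 there were 35, 20 and 15 calls, and without tamoxifen 1 there were 0. In such fits the lone mouse of a group is assumed to vary like the others. In 342 genes (14.9%) both tamoxifen mice lay above both placebo mice, and in 364 (15.9%) both lay below. Levels in this comparison are CPM after TMM scaling.

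The gene with the smallest p was Gm42418, a lincRNA gene at chr17:39846958-39848788 on the plus strand that overlaps a repeat of ribosomal RNA. It stood at 26828 and 28828 CPM in the placebo mice and at 45309 and 40767 CPM in the tamoxifen mice. Both tamoxifen mice were above both placebo mice. The log2 fold change was 0.63 ± 0.08 (SE) with an edgeR adjusted p of 0.209, and with a stricter gate it was the 1 gene called.

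Next came genes of MHC class II, which presents peptides to CD4 T cells. Cd74, the invariant chain that guides class II molecules, stood at 1234 and 997 CPM in the placebo mice and at 2613 and 2095 CPM in the tamoxifen mice, a log2 fold change of 1.07 ± 0.20. H2-Ab1, a class II beta chain, stood at 69.1 and 99.1 CPM against 455 and 258 CPM, a log2 fold change of 2.08 ± 0.37. Both had an edgeR adjusted p of 0.509, and in both the tamoxifen mice lay above the placebo mice. Their UMIs came from few cells. Of 333 Cd74 UMIs in tamoxifen 1, a single cell held 247, and H2-Ab1 was found in 13 monocytes in all. H2-Aa, described before for its level, stood at 267 and 180 CPM against 957 and 366 CPM, with 103 of 122 UMIs of tamoxifen 1 in 1 cell (log2 fold change 1.54 ± 0.45, edgeR adjusted p = 1.00). Leaving out placebo 1, placebo 2 or tamoxifen 2 took Gm42418, Cd74, H2-Ab1 and H2-Aa past the threshold each time, and leaving out tamoxifen 1 did not.

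The other genes among the 10 with the smallest p were Ier3, Cnot3, Bud31, Ctsc, Cd33, Zfp36l1 and Gadd45b, with edgeR adjusted p of 0.939 for Ier3 and 1.00 for the rest. Ier3, an immediate early gene of the NF-kB response, stood at 454 and 341 CPM against 761 and 888 CPM (log2 fold change 1.05 ± 0.22). Ctsc, the lysosomal protease cathepsin C, stood at 306 and 366 CPM against 604 and 597 CPM (log2 fold change 0.84 ± 0.21). Cd33, an inhibitory sialic acid receptor, stood at 34.6 and 24.8 CPM against 102 and 94.9 CPM. In these 3 genes the groups did not overlap, with both tamoxifen mice above. Gadd45b, a stress response gene, stood at 247 and 297 CPM against 463 and 481 CPM. Zfp36l1, whose protein speeds the decay of AU-rich mRNAs, stood at 138 and 223 CPM against 70.6 and 61.0 CPM. Cnot3, a subunit of the deadenylase complex, and Bud31, a splicing factor, each had 2 and 3 UMIs in the tamoxifen mice and 15 to 18 in the placebo mice, a difference that did not pass.

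For the genes that chose the cells the fold change is a description only. On the log2 scale it was 0.10 for Ly6c2, 0.45 for Ccr2 and 0.30 for F13a1, and it was 0.11 for Vcan, -0.02 for Fn1 and -0.09 for Lyz2. Vcan and Fn1 encode the matrix proteins versican and fibronectin, and Lyz2 encodes lysozyme. The signs of Ly6c2, Vcan and Fn1 turned under other settings.

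**Figure D3:**
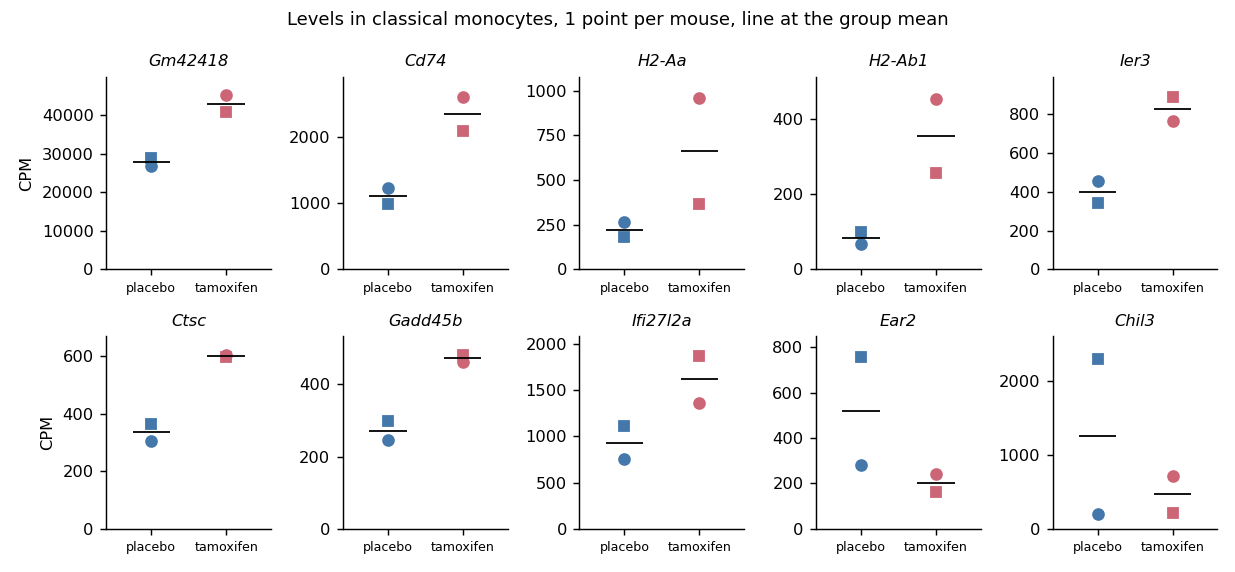
Level of 10 genes in classical monocytes as TMM-scaled CPM, with 1 point per mouse (circle for replicate 1, square for replicate 2) and a line at the group mean. In Gm42418, Cd74, H2-Aa, H2-Ab1, Ier3, Ctsc, Gadd45b and Ifi27l2a both tamoxifen mice are above both placebo mice. In Ear2 both are below, and in Chil3 placebo 2 stands alone at 2299 CPM.

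Gene lists are described by counts and by the median log2 fold change, beside a median of -0.01 over all 2292 genes, and no member of any list passed. Of all 2292 genes 1132 were above 0, and the groups were apart upward in 14.9% and downward in 15.9%. Of 28 tested monocyte genes outside the rule, 23 were above 0 with a median of 0.19. In 6 of them both tamoxifen mice lay above both placebo mice and in 1 below. For genes of dendritic-like monocytes, a list that holds the class II genes, 7 of 11 were above 0 with a median of 0.50, and the groups were apart upward in 4 and downward in 1. For genes of neutrophil-like monocytes 4 of 7 were above 0 with a median of 0.25.

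Inflammatory and stress genes had list medians above 0 without a call. Of 18 NF-kB genes 14 were above 0, with a median of 0.31 and 7 genes apart upward against 1 downward. The shares apart over all genes, for this and the next lists, were 14.9% upward and 15.9% downward. Il1b, which encodes the cytokine interleukin 1 beta, stood at 982 and 1171 CPM in the placebo mice and at 1185 and 2170 CPM in the tamoxifen mice. Nfkb1, a subunit of NF-kB itself, went the other way at 212 and 198 CPM against 110 and 115 CPM. The NF-kB genes summed to 11634 and 9498 CPM in the placebo mice and to 11661 and 17237 CPM in the tamoxifen mice, so tamoxifen 2 was high. Of 17 immediate early genes 13 were above 0 (median 0.31), with 3 apart upward, and of 10 heat shock genes 9 were (median 0.36), with 3 apart upward. These lists are not independent, as Zfp36 and Ier3 were apart upward in both the NF-kB and the immediate early list. The heat shock genes apart were Hspa5 and the related Hspa1a and Hspa1b. The immediate early genes summed to 20312 and 12738 CPM in the placebo mice and to 19233 and 22126 CPM in the tamoxifen mice, so placebo 2 was low and the groups overlapped. Such genes also respond to tissue digestion, and the part of handling in these values was not tested. Fos stood at 2981 and 1456 CPM against 2817 and 2923 CPM, so placebo 2 alone was low.

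Of 8 type I interferon genes 5 were above 0 with a median of 0.22. Ifi27l2a, an interferon-induced gene, stood at 755 and 1109 CPM against 1365 and 1872 CPM, and Bst2, which tethers enveloped virus particles, at 153 and 118 CPM against 298 and 190 CPM. The groups did not overlap in either gene. Of 4 oestrogen-linked genes 1 was above 0 with a median of -0.09.

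Of the lists with at least 5 tested members, the lowest median was that of S100 and annexin genes, which encode calcium-binding proteins. Of its 10 members 2 were above 0, with a median of -0.32, and the groups were apart downward in 5, namely S100a1, S100a10, S100a11, S100a13 and Anxa2. S100a10, which forms a complex with annexin A2 at the membrane, stood at 2305 and 1784 CPM in the placebo mice and at 1554 and 1716 CPM in the tamoxifen mice. Anxa2 stood at 1175 and 1128 CPM against 863 and 882 CPM, a log2 fold change of -0.40. Of 11 glycolysis and hypoxia genes 5 were above 0 (median -0.22). The 12 mitochondrially encoded genes had a median of 0.02 with no gene apart, and the 80 ribosomal protein genes a median of 0.01 with 10 apart upward and 12 downward. The shares of genes apart in these lists stand against 14.9% upward and 15.9% downward over all genes.

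**Figure D4:**
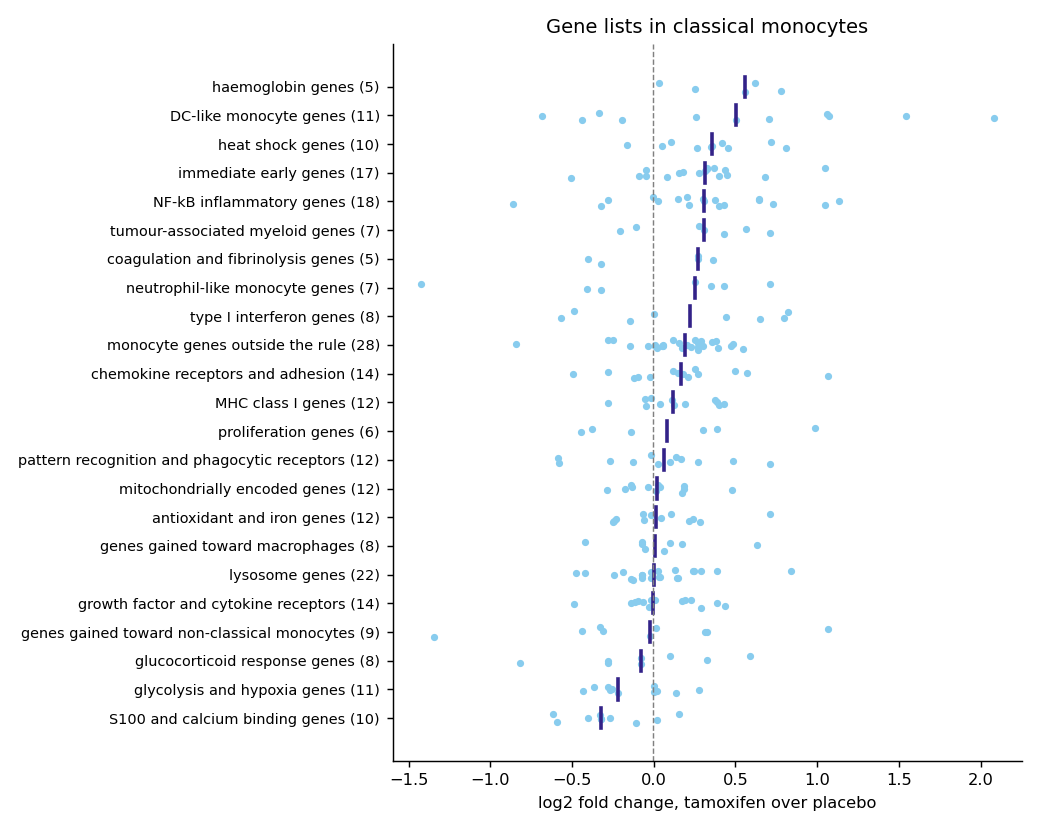
Log2 fold change of tamoxifen over placebo for the tested members of each list with at least 5 of them (number in brackets), without the ribosomal proteins. Points are genes, bars are list medians and the dashed line is the median of all genes, and no point passed the test.

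Some genes varied strongly between mice of the same group. Chil3, which encodes the secreted chitinase-like protein YM1, stood at 197 and 2299 CPM in the placebo mice and at 714 and 217 CPM in the tamoxifen mice, with UMIs in 26 of 29 monocytes of placebo 2. After each cell was thinned to 1000 UMIs, Chil3 was found in 19.0 and 67.9% of placebo and 43.5 and 14.3% of tamoxifen monocytes. Ear2, a ribonuclease of the eosinophil family, stood at 281 and 756 CPM against 243 and 163 CPM. Both tamoxifen mice lay below both placebo mice (log2 fold change -1.34), and 80 of its 122 UMIs in placebo 2 lay in 1 cell. In these 2 genes the difference within the placebo group was larger than that between the group means.

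The class II genes also differed from cell to cell within each mouse. The start regions of 2 of them are shown because these genes share control elements, among them the Y box, whose core is the CCAAT motif. The windows are the 150 bases before the RefSeq start on GRCm38.p6, at chr17:34287824-34287973 (minus strand) for H2-Aa and chr17:34305717-34305866 (plus strand) for H2-Eb1, and capitals mark ATTGG and its complement CCAAT.
H2-Aa: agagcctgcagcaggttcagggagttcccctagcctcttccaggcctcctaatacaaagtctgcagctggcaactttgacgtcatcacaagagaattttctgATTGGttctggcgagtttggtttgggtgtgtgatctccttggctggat
H2-Eb1: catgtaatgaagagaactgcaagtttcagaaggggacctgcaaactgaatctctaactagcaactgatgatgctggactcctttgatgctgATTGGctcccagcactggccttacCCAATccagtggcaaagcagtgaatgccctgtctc
One of these motifs stood in 24.5% of the 32851 promoter windows in the table, on either strand, and a match is a description only. H2-Eb1 was nearly silent in the monocytes, at 9.8 and 12.8 CPM in the placebo mice and at 7.8 and 0 CPM in the tamoxifen mice. B cells of the same mice held 139 to 185 CPM of H2-Eb1 beside 9626 to 11548 CPM of H2-Aa, so H2-Eb1 was low there too.

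To count class II cells at equal depth, each monocyte was thinned to 1000 UMIs, which left 42, 28, 23 and 28 cells. A cell with at least 3 UMIs of H2-Aa, H2-Ab1, H2-Eb1 and Cd74 together was called class II-high. There were 6 and 2 such cells in the placebo mice, or 14.3 and 7.14%, and 4 and 5 in the tamoxifen mice, or 17.4 and 17.9%. The exact binomial intervals ran from 5.43 to 28.5% and 0.877 to 23.5% in the placebo mice, and from 4.95 to 38.8% and 6.06 to 36.9% in the tamoxifen mice, so they overlapped. Both tamoxifen mice lay above both placebo mice, with a difference of 6.91 percentage points between the means (exact permutation p = 0.333, the smallest possible), but with a looser gate the groups overlapped.

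With at least 1 UMI as the limit the shares were 21.4 and 17.9% against 39.1 and 39.3%. The same count in other cell types gives a level to set beside these shares, and the source of their class II UMIs was not tested. T cells were chosen by Cd3e with no UMI of Cd79a or Lyz2, and neutrophils by Cxcr2 with none of Cd3e or Cd79a. Cells that carried those transcripts of other types were thus left out of this count. In T cells, which do not make class II in the mouse, 1.69 to 4.00% of cells had at least 1 UMI and 0.262 to 0.461% had at least 3. In neutrophils 5.75 to 8.89% had at least 1 and 1.07 to 2.40% at least 3. The T cells had median depths of 2862 to 4050 UMIs before thinning. Treml4 cells stood far above all of these, with Cd74 found in 65.0 to 85.7% of cells after thinning, against 17.9 to 39.3% in classical monocytes.

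Within each mouse, class II-high monocytes were set against those with 0 class II UMIs after thinning, of which there were 33, 23, 14 and 17. Il1b and Cd83 were the 2 of 894 genes called (0.224%) by edgeR's quasi-likelihood test with the mouse as a block. Both are genes of activated myeloid cells, and CD83 is a surface protein of maturing dendritic cells. In class II-high cells Il1b stood at 2522 and 3885 CPM in the placebo mice and 1699 and 3038 CPM in the tamoxifen mice. In class II-zero cells it stood at 569 and 840 CPM and at 230 and 1716 CPM. It was higher in class II-high cells in 4 of 4 mice, with a log2 fold change of 1.94 ± 0.30 (SE, adjusted p = 0.0332).

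Cd83 stood at 587 and 496 CPM in class II-high cells of the placebo mice and at 721 and 231 CPM in those of the tamoxifen mice. Its levels in class II-zero cells were 75.4 and 38.2 CPM and 141 and 86.9 CPM. It too was higher in 4 of 4 mice, with a log2 fold change of 2.57 ± 0.40 (SE, edgeR adjusted p = 0.0332), from 88 UMIs in all. Few cells carried these UMIs. Over all members, 1 cell held 13 of 38 Cd83 UMIs in placebo 1 and 6 of 13 in placebo 2. In tamoxifen 1 a single cell held 13 of 32, and in tamoxifen 2 no cell held more than 3 of 14. A mouse's Cd83 level could thus rest on 1 cell. Both calls were lost when placebo 1, placebo 2 or tamoxifen 1 was left out and with the stricter gate (adjusted p = 0.0598 and 0.0586). Il1b was also lost with no mouse block (0.107) and with at least 5 UMIs as the limit (0.627), and Cd83 was not among the genes tested with limits of 1 or 5 UMIs or on thinned counts. Il1b had an adjusted p from 6.67e-05 to 0.627 over all settings tried.

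Genes that did not pass are given for their direction only, and were picked after their values were seen. Fn1 stood at 609 and 496 CPM in class II-high cells of the placebo mice and 463 and 692 CPM in those of the tamoxifen mice, against 1227 and 1215 CPM and 856 and 1249 CPM in class II-zero cells. Mgst1, a glutathione transferase, stood at 87.0, 248, 257 and 154 CPM against 589, 718, 536 and 587 CPM in the same order of mice. It was lower in class II-high cells of all 4 mice at an edgeR adjusted p of 0.0949. H2-K1, an MHC class I heavy chain, stood at 935, 2480, 1339 and 692 CPM against 432, 435, 600 and 467 CPM, higher in each mouse. Over all 894 genes, 10.5% were higher in 4 of 4 mice and 12.6% in none. Ly6c2 was higher in class II-high cells of placebo 2 and tamoxifen 2 and lower in those of the other mice.

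By lists, 10 of 11 NF-kB genes lay above 0 in class II-high cells with 1 call and a median log2 fold change of 0.86, and 15 of 17 immediate early genes did with a median of 0.63. Of 79 ribosomal protein genes 67 lay below 0 with a median of -0.17, beside a median of -0.00 over all genes. Of all 894 genes 444 lay above 0 and 450 below. Markers of dendritic cells did not move alike in the mice. The type 2 dendritic cell list summed to 1152 and 170 CPM in class II-high cells of the placebo mice and 552 and 233 CPM in those of the tamoxifen mice. In class II-zero cells it summed to 198 and 46.8 CPM and to 384 and 242 CPM. Cd209a had 32 UMIs in the 6 class II-high cells of placebo 1, 1 in those of placebo 2 and 0 in those of both tamoxifen mice. The part of dendritic cells in the calls was not tested. Class II-high cells also had more UMIs in placebo 1, with a median of 7663 against 4187, while the other mice differed less. The erythroid list summed to 24341 CPM in class II-zero cells of placebo 1 and 35302 CPM in those of tamoxifen 2, against 87.0 and 116 CPM in class II-high cells. In placebo 2 the alveolar macrophage list summed to 3232 CPM in class II-zero and 425 CPM in class II-high cells, and the epithelial list to 2022 and 255 CPM. The part of these transcripts in the calls was not tested, and without haemoglobin-bearing cells both genes had an adjusted p of 0.0497.

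**Figure D5:**
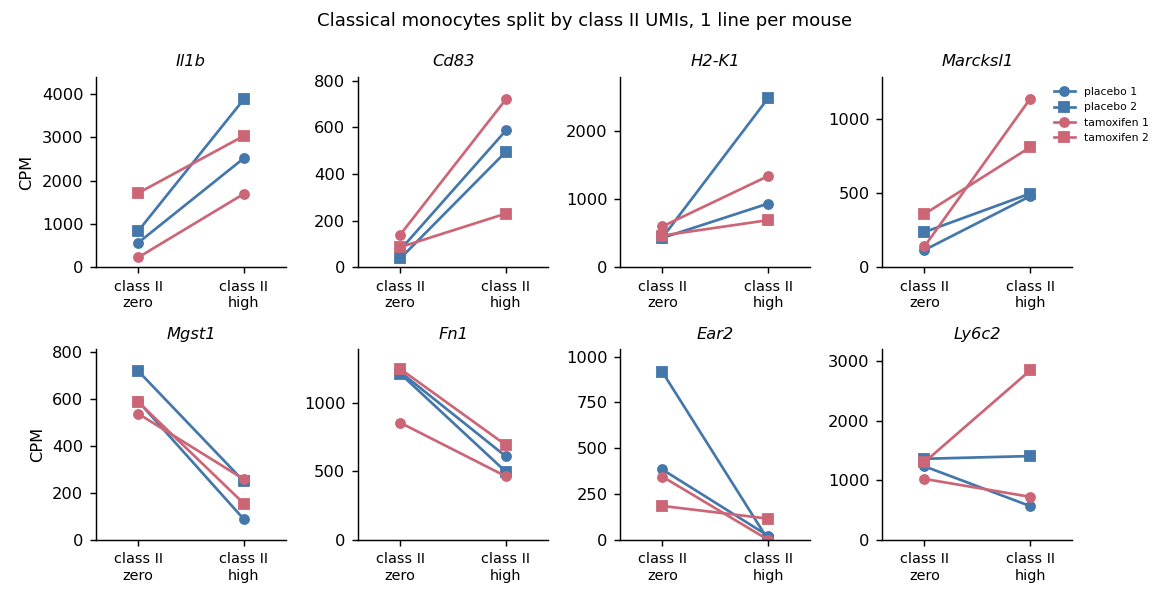
Level of 8 genes as CPM in class II-zero and class II-high classical monocytes, with 1 line per mouse. Il1b and Cd83 rise in each of the 4 mice and passed the test, the others did not pass, and Ly6c2 has no common direction.

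A last comparison asked whether tamoxifen mice differed from placebo mice by another amount in classical monocytes than in their nearest relatives. Against the Ace or Treml4 cells first laid down, 5 of 9678 genes had a different log2 fold change (edgeR quasi-likelihood interaction, 0.0517%), and the median difference over all genes was -0.15. They were Lyz2, Gm42418, Trf, Cst3 and Car2. Without placebo 1, placebo 2, tamoxifen 1 or tamoxifen 2 there were 74, 45, 29 and 3 calls. Against Treml4 cells without endothelial markers there were 8 calls of 4342 (0.184%), a choice made after the data were seen. The median over all genes was then -0.01, and Gm42418 was the 1 gene called in both.

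Gm42418 stood at 27214 and 54027 CPM in Treml4 cells of the placebo mice and at 31998 and 28074 CPM in those of the tamoxifen mice. In classical monocytes, before TMM scaling, it stood at 26553 and 29689 CPM against 45303 and 40000 CPM. The difference between the log2 fold changes was 0.74 ± 0.11 (SE, adjusted p = 0.000214) against Ace or Treml4 cells and 0.97 ± 0.16 (adjusted p = 0.0180) against Treml4 cells. In Treml4 cells placebo 2 alone was high. Lars2, the mitochondrial leucyl-tRNA synthetase gene, differed by 0.92 ± 0.14 (edgeR adjusted p = 0.0133) in the second comparison. It stood at 4040 and 5928 CPM against 6489 and 4977 CPM in classical monocytes, where the groups overlapped. In Treml4 cells it stood at 3483 and 5983 CPM against 3153 and 2528 CPM, with placebo 2 again the highest.

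Lyz2 chose the classical monocytes and not the cells set against them, so its difference of -1.003 against Ace or Treml4 cells is no test. In those cells the share with endothelial genes fell from 56.7 and 66.1% in the placebo mice to 50.8 and 36.4% in the tamoxifen mice. Against Treml4 cells the difference in Lyz2 was -0.37. Trf, which encodes the iron carrier transferrin, and Cst3 were called against Ace or Treml4 cells (both adjusted p = 0.0310) and did not pass against Treml4 cells, at adjusted p of 0.999 and 1.00. Car2, a carbonic anhydrase of red cells, had all of its 29 UMIs in 1 monocyte of tamoxifen 2. Fn1 was among the 8 against Treml4 cells with a difference of -3.51, and as a rule gene it has no test either. It stood at 1104 and 1155 CPM against 1114 and 1071 CPM in classical monocytes. In Treml4 cells it stood at 13.4 and 19.8 CPM in the placebo mice and 99.9 and 307 CPM in the tamoxifen mice. Chil3 was called at -3.36 ± 0.56, with 3 UMIs in Treml4 cells of placebo 1 and the mouse-to-mouse spread in classical monocytes given above. The other calls, Myl9, Igfbp7, Sod3 and Fhl1, had UMIs in classical monocytes of placebo 1 alone.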

How the data were processed

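Whole-lung cells of 4 mice were measured by 10x 5' gene expression, 1 library per mouse. The deposited matrices hold unnormalized UMI counts, with 32285 genes by cell barcodes, as the authors made them. Cell Ranger 5.0.0 is named per the file headers, while Cell Ranger 8.0.1 and mm10 are named per the submitters' processing notes, which differ. Of 34755 deposited barcodes, 28168 with at least 250 genes, at most 15% mitochondrial and under 50% haemoglobin UMIs were kept. Scrublet (scanpy 1.11.5) scored doublets, and 1 member scored 0.25 or more; doublets were removed in an alternative only.

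The UMIs of all members of a mouse were added up and fitted with edgeR 4.0.16 in R 4.3.3 (TMM scaling, filterByExpr, quasi-likelihood F test, Benjamini-Hochberg threshold 0.05, all passing genes adjusted together). The SE of a log2 fold change was taken from the F statistic. DESeq2 1.42.0 was an alternative. Shares were compared by an exact permutation test over the 4 mice. The labels give 1 library to each mouse, and n = 2 per group limits every test. The edgeR tests were also run on simulated counts, with means and dispersion taken from these data. Levels on the figure of cell classes and in marker sums are CPM over summed UMIs without TMM scaling.

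The members and lists were chosen with earlier results of these data known. Named genes were those of the rule, the called genes, the 10 with the smallest p, and up to 3 of highest level per list. Others, such as Nfkb1, Ear2, Chil3, Bst2 and S100a13, were chosen after their values were seen. A gene named by the rule may be not reported here. Alternatives were DESeq2, other scaling, no count filter, each mouse left out, a replicate block, stricter and looser gates, removal of doublets or shared barcodes and equal cell numbers. Added after the data were seen were removal of haemoglobin-bearing cells, a crossed block and the Treml4 cells. GENCODE vM21 gave gene positions and RefSeq the start regions.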

Additional observations from a re-analysis of the deposited data

Results flagged for a closer look

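Of the genes tested, 5 are listed because their difference between tamoxifen and placebo mice was not the same in classical monocytes as in Ace or Treml4 cells, by edgeR's interaction test. The difference of the log2 fold changes was -1.003 for Lyz2, 0.74 for Gm42418, -1.66 for Trf, -0.91 for Cst3 and 10.20 for Car2. Against Treml4 cells without endothelial markers it was -0.37 for Lyz2, 0.97 for Gm42418, -0.48 for Trf and -0.10 for Cst3, and Gm42418 alone of these passed. Lyz2 is a rule gene and its values are a description. Car2 was not tested there. Lyz2, Trf and Cst3 ran from 1885 to 3299, 189 to 502 and 3822 to 7097 CPM in Ace or Treml4 cells and from 5201 to 8248, 607 to 879 and 10482 to 18830 CPM in Treml4 cells. The part of endothelial cells in those calls was not tested beyond these values.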

How the results depend on the processing

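The 0 calls between tamoxifen and placebo became 22 with no count filter, 1 with the stricter gate and 0 to 35 with 1 mouse left out, and stayed at 0 in the other settings but 1. Labels give both groups replicate numbers 1 and 2. A replicate block gave 0 calls, the deviations of same-numbered mice correlated at -0.24 over 2292 genes, and crossed pairing, chosen after the data were seen, gave 3 calls. The 5 interaction calls became 10 with DESeq2 size factors, 9 with DESeq2, 30 with no count filter, 2 without doublets, 40 and 3 with the stricter and looser gates, 43 without shared barcodes, 17 at equal cell numbers, 12 without haemoglobin-bearing cells, 8 against Treml4 cells and 3 to 74 with 1 mouse left out. The 2 class II calls became 5 with DESeq2, 70 with no count filter, 0 with at least 5 UMIs or the stricter gate and 0 to 7 with 1 mouse left out, and were 2 with no replicate block, where Mgst1 took the place of Il1b. Reversed were Vcan (-0.28 to 0.59 with 1 mouse left out), Ly6c2 (-0.20 to 0.35) and Fn1 (-0.027 to 0.0047), the last also at 0.00083 without doublets, 0.089 and 0.018 with the stricter and looser gates, 0.020 without shared barcodes and 0.081 at equal cell numbers. The cause of each move was not tested. The share of kept cells, the ratio to Ace or Treml4 cells and the class II-high share kept their direction in every setting, but not their size. With the looser gate the class II-high difference fell from 6.91 to 0.31 percentage points, and the groups overlapped. With the stricter gate the log2 difference in the ratio went from -0.31 to -0.15, and the groups overlapped there too. With 23 to 43 cells per mouse, genes of low level were not measurable, and 1 cell could set a mouse's level.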

Other observations

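Some transcripts in the monocytes came almost wholly from 1 mouse, and these were picked after their values were seen. Saa3, an acute phase serum amyloid gene, had 107 UMIs in placebo 2 and 0, 1 and 1 in placebo 1, tamoxifen 1 and tamoxifen 2. Sftpc, the surfactant protein of alveolar type 2 cells, had 210 UMIs in placebo 2, of which 209 lay in 1 cell, and 2, 0 and 0 in the others. Arg1, an enzyme of tumour-associated macrophages, had 0 UMIs in all 123 monocytes.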
